A study of Mus musculus with 15 samples.

Results

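The insulin-like growth factor 1 (IGF-1) axis was followed in messenger RNA of the mouse left ventricle as 9 genes, chosen by symbol in the deposited count table. They were the ligand gene Igf1, the receptor genes Igf1r and Igf2r, and 6 genes of the binding protein family, Igfbp2 to Igfbp7, out of 47069 genes in all. Each symbol stood on 1 row of the table and all 9 genes passed the filter on low counts in every comparison. The 15 libraries came from 15 C57BL/6 hearts in 3 groups of 5. In the rHCI group a myocardial infarction was followed 7 days later by an injection of rHCI, a hydrogel of recombinant human collagen type I, into the heart muscle. In the PBS group the infarct was followed by PBS, the saline control, on the same day. In both groups the ventricle was taken 2 days after the injection, ground whole and sequenced. The Sham group was operated on without an infarct, was not treated and was taken at a matched age, given as 10 weeks. The design text names the 5 hearts of a group as biological replicates, and no age is given for the infarcted mice. Infarct and injection cannot be told apart wherever Sham is the baseline.

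IGF-1 is a secreted growth factor that comes from the liver by way of the blood and is also made locally in injured tissue. It acts through IGF1R, a receptor tyrosine kinase that drives the PI3K-AKT and MAPK cascades and favours survival and growth of heart muscle cells. IGF2R, also known as the cation-independent mannose 6-phosphate receptor, takes IGF-2 into the cell for breakdown and sorts lysosomal enzymes. The binding proteins hold IGFs outside the cell, protect them and withhold them from the receptor until proteases such as PAPP-A cut the carrier, and IGFBP7 is a relative that binds IGFs only weakly.

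The promoters of 4 binding protein genes are given because these genes rose more than 2-fold over sham hearts, as described below. They are the 250 bases before the RefSeq start (build GRCm38.p6), read 5′ to 3′ on the gene's strand. All 9 genes matched a RefSeq promoter. The window of Igf1 overlapped an annotated exon and is not printed. Capitals mark matches to a TATA box (TATAAA, gene strand only), an AP-1 site (TGANTCA), a TEAD site (GGAATG) or a GC box (GGGCGG), the last 3 on both strands.
Igfbp7 (chr5:77408046-77408295, minus strand): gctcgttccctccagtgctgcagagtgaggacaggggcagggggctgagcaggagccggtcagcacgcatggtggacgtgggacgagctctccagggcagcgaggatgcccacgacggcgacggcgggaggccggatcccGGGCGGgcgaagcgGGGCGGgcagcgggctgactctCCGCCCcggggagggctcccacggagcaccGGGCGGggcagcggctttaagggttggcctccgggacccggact
Igfbp4 (chr11:99040994-99041243, plus strand): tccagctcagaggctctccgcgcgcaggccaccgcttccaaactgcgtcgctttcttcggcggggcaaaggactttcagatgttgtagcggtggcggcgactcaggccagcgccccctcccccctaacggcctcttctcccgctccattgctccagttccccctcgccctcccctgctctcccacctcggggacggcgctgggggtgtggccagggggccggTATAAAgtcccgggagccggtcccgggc
Igfbp6 (chr15:102143936-102144185, plus strand): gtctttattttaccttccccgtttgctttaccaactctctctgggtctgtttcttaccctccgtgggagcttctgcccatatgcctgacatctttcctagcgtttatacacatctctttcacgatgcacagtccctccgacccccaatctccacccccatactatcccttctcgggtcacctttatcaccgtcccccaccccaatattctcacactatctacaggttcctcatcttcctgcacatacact
Igfbp2 (chr1:72824230-72824479, plus strand): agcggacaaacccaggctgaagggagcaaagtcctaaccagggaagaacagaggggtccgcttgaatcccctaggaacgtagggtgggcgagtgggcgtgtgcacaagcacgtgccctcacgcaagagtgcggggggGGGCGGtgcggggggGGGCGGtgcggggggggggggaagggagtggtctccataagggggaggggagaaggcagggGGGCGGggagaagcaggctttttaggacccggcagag
The Igfbp7 window held 4 GC boxes and the Igfbp2 window 3, while the Igfbp4 window held 1 TATA box and the Igfbp6 window none of the 4 motifs. Among 32851 mouse promoter windows of the same length, 32.7% held a GC box, 7.59% a TATA box, 6.75% an AP-1 site and 12.6% a TEAD site. No 2 matches overlapped in the printed windows. Igfbp2 had 2 RefSeq starts, and the first is shown. None of the printed windows held an AP-1 or TEAD site. Among windows not printed, those of Igf1 and of the second Igfbp2 start held 1 AP-1 site each. That of Igfbp5 held 1 TEAD site. These matches describe the letters and are not evidence of binding.

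Total counts ranged from 32978702 to 103356830 per library. All 8 heart muscle marker genes were detected in every group, and their summed level was 43662 to 66463 CPM (the read count scaled to the library's TMM-adjusted total) in rHCI hearts, 40813 to 60316 CPM in PBS hearts and 83229 to 92688 CPM in sham hearts. PBS 6 stood apart by lung transcripts. Its 7 lung and liver markers summed to 66.6 CPM, led by the surfactant gene Sftpc at 44.8 CPM, while the other 14 libraries were at or below 0.552 CPM. PBS 6, rHCI 1 and Sham 19 were the 3 libraries whose labels carry another run number than the 12 that share 1. Within each group, every pair of libraries differed by more than counting noise.

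PBS and sham hearts were compared to ask how the axis differed in the infarcted ventricle that received only saline. Igf1 rose 4.90-fold, while the receptor gene Igf1r rose only 1.35-fold. In the binding protein family Igfbp7 rose 3.91-fold, Igfbp4 2.77-fold and Igfbp6 2.58-fold, and Igfbp3 and Igfbp5 rose 1.58-fold each. Igfbp2, which had at most 5 counts in any sham library, rose to a low level. By edgeR's quasi-likelihood test, with p-values adjusted by Benjamini-Hochberg over 16207 genes, 8 of the 9 genes were higher, against 36.5% of all genes, and 1 was lower, against 34.9%. The median log2 fold change was 1.37 over the 9 genes and −0.01 over all genes. In 8 of 9 genes every PBS library lay above every sham library, against 31.5% of all genes. Without PBS 6 the counts were again 8 higher and 1 lower.

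The ligand gene (Igf1, ENSMUSG00000020053; chromosome 10, 87858265 to 87937042, GRCm38, plus strand) was higher in all infarcted hearts. Igf1 had 70.1, 69.3, 59.6, 54.8 and 67.6 CPM in the rHCI hearts, 78.5, 76.2, 75.2, 77.0 and 63.4 CPM in the PBS hearts and 15.7, 17.01, 15.3, 16.2 and 11.5 CPM in the sham hearts. Every infarcted heart of either group lay above every sham heart, and the lowest infarcted library still held more than 3 times the level of the highest sham library. Means were 64.3 ± 6.76 CPM in rHCI hearts, 74.0 ± 6.08 CPM in PBS hearts and 15.1 ± 2.14 CPM in sham hearts (SD, n = 5 each), and PBS against Sham gave a log2 fold change of 2.29 ± 0.10 (SE; adjusted p = 9.28e-10, edgeR). In a bulk sample, fewer cells of a type and less RNA per cell cannot be told apart. All 8 macrophage marker genes rose in PBS hearts too, with a summed level of 739 to 940 CPM in rHCI hearts, 746 to 1003 CPM in PBS hearts and 211 to 259 CPM in sham hearts. All 7 activated fibroblast genes were tested and 6 rose, with sums of 9586 to 15855 CPM in rHCI hearts, 10474 to 15537 CPM in PBS hearts and 571 to 878 CPM in sham hearts. Of 6 resting fibroblast genes 5 rose and 1 fell, with sums of 2370 to 2674 CPM in rHCI hearts, 2468 to 2718 CPM in PBS hearts and 1930 to 2140 CPM in sham hearts. The part of these cell types in the Igf1 difference, or in those of the genes below, was not tested.

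**Figure D1:**
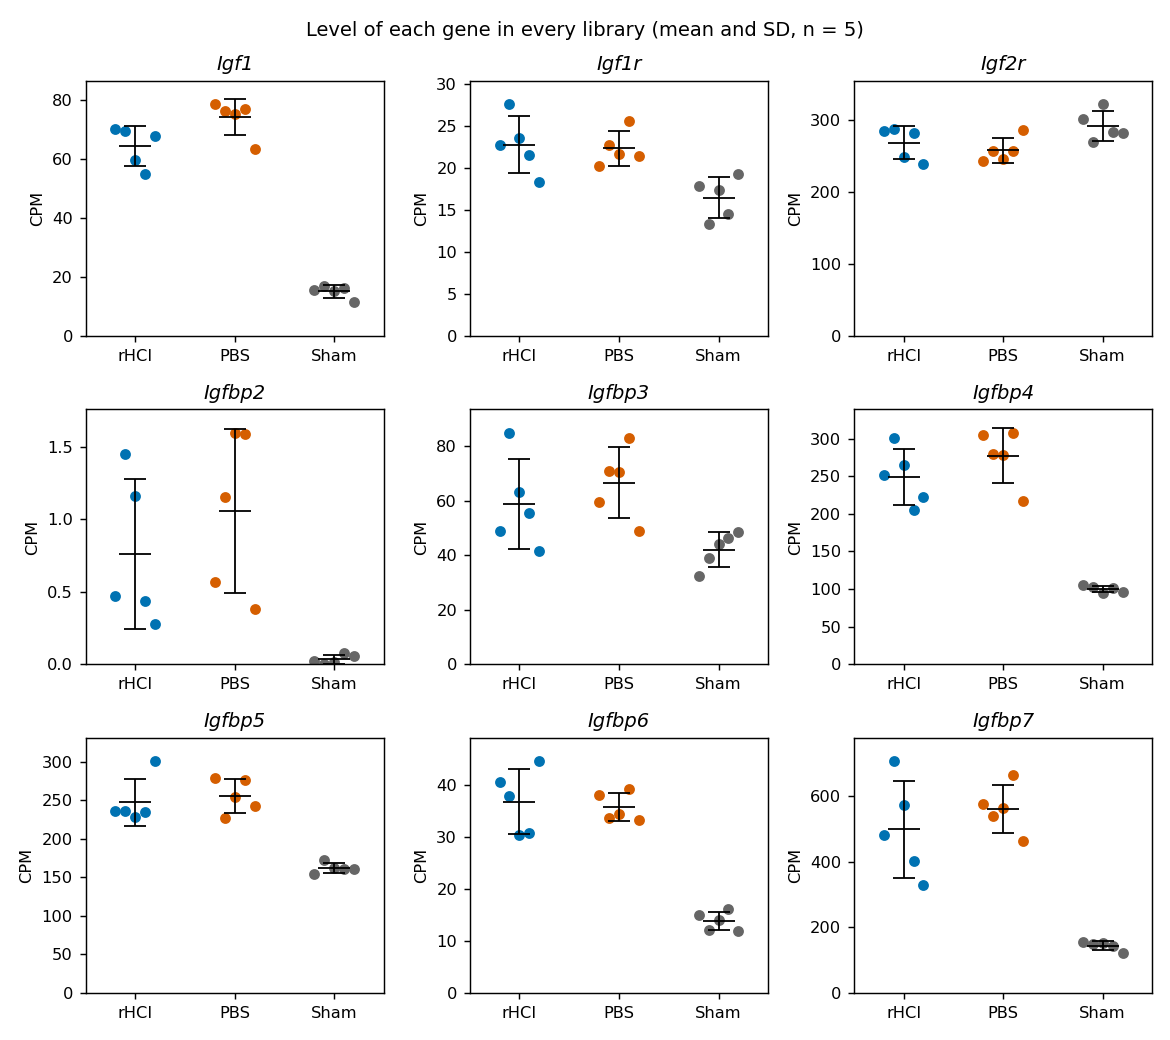
Level of each of the 9 genes in every library, in CPM on a linear axis that starts at 0, with rHCI left, PBS in the middle and Sham right; each point is 1 heart and each bar the mean with its SD (n = 5). Igf1, Igfbp4, Igfbp5, Igfbp6 and Igfbp7 show all infarcted hearts above all sham hearts, whereas for Igf2r the groups share their range.

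The receptor genes (Igf1r, ENSMUSG00000005533; chromosome 7, 67952827 to 68233668; Igf2r, ENSMUSG00000023830; chromosome 17, 12682406 to 12769664) had the smallest fold changes of the 9. Igf1r had 22.8, 27.6, 23.7, 21.6 and 18.4 CPM in the rHCI hearts, 20.3, 22.8, 21.7, 25.7 and 21.4 CPM in the PBS hearts and 17.9, 13.4, 17.4, 14.5 and 19.3 CPM in the sham hearts. Each PBS heart was above each sham heart, but rHCI 13 fell within the sham range. Igf1r, which carries the IGF-1 signal into the cell, averaged 22.8 ± 3.37 CPM in rHCI, 22.4 ± 2.05 CPM in PBS and 16.5 ± 2.44 CPM in sham hearts (SD, n = 5 each), a log2 fold change of 0.44 ± 0.09 for PBS against Sham (SE; adjusted p = 0.000883, edgeR). Igf2r had 285, 287, 249, 282 and 238 CPM in the rHCI hearts, 243, 256, 245, 257 and 286 CPM in the PBS hearts and 301, 269, 322, 283 and 282 CPM in the sham hearts. These ranges overlap between all 3 groups. Igf2r was the 1 member that fell in PBS hearts, to 257 ± 17.04 CPM against 291 ± 20.4 CPM in sham hearts, with a log2 fold change of −0.18 ± 0.06 (SE, n = 5 each; adjusted p = 0.0130, edgeR). With libraries scaled by their totals alone, the median of all genes moved to 0.27, the share of higher among called genes went to 77.4% against 51.2% with TMM, and Igf2r came out at 0.09 with an adjusted p of 0.0953, still below that median. The antisense gene Airn overlaps Igf2r without sharing exon bases and had 7753 counts over the 15 libraries, against 257413 for Igf2r.

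The binding proteins differed widely in how far they rose. Igfbp7, made by endothelial and stromal cells and deposited in the matrix, had the highest level per kilobase of exon in every group (ENSMUSG00000036256; chromosome 5, 77349240 to 77408041, minus strand). In CPM it came first in rHCI and PBS hearts, while in sham hearts Igf2r (291 CPM) and Igfbp5 (162 CPM) stood above its 144 CPM. Igfbp7 had 483, 706, 572, 403 and 328 CPM in the rHCI hearts, 575, 539, 564, 663 and 463 CPM in the PBS hearts and 154, 148, 152, 143 and 121 CPM in the sham hearts. Each infarcted heart held more than 2 times the highest sham value. The log2 fold change was 1.97 ± 0.09 for PBS against Sham (SE; adjusted p = 1.80e-09, edgeR; means 561 ± 71.9 in PBS and 144 ± 13.2 CPM in Sham, SD, n = 5 each). Igfbp7 shares 85 exonic bases with Polr2b on the other strand, which had 54782 counts over the 15 libraries against 381694 for Igfbp7. The strand setting of the counting is not given, so a part of these reads could be assigned to either gene. Of 7 endothelial markers 4 rose, with sums of 833 to 1076 CPM in rHCI, 892 to 1035 CPM in PBS and 802 to 917 CPM in sham hearts, and their part in the difference was not tested.

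Igfbp4 (ENSMUSG00000017493; chromosome 11, 99041244 to 99054392) encodes a carrier that PAPP-A cuts. Igfbp4 had 252, 300.3, 265, 205 and 222 CPM in the rHCI hearts, 304, 279, 278, 308 and 217 CPM in the PBS hearts and 105, 102, 94.6, 101 and 96.7 CPM in the sham hearts. The 10 infarcted hearts lay apart from the sham hearts, which differed little among themselves. PBS against Sham gave 1.47 ± 0.09 on the log2 scale (SE; adjusted p = 9.69e-09, edgeR; means 277 ± 36.6 in PBS and 100.1 ± 4.39 CPM in Sham, SD, n = 5 each). Igfbp6 (ENSMUSG00000023046; chromosome 15, 102144362 to 102149511) encodes a carrier that prefers IGF-2 over IGF-1. Igfbp6 had 40.5, 37.8, 30.3, 30.7 and 44.5 CPM in the rHCI hearts, 38.1, 33.6, 34.4, 39.1 and 33.2 CPM in the PBS hearts and 15.0, 12.005, 14.1, 16.1 and 11.97 CPM in the sham hearts. All 10 infarcted hearts were above all 5 sham hearts. Its log2 fold change was 1.37 ± 0.09 (SE; adjusted p = 2.12e-08, edgeR; means 35.7 ± 2.70 in PBS and 13.8 ± 1.81 CPM in Sham, SD, n = 5 each).

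Igfbp5 (ENSMUSG00000026185), which can bind matrix and is expressed by muscle and stromal cells, rose less. Igfbp5 had 236, 236, 228, 235 and 301 CPM in the rHCI hearts, 279, 227, 254, 276 and 243 CPM in the PBS hearts and 154, 172, 162, 161 and 161 CPM in the sham hearts. All infarcted hearts exceeded all sham hearts, and rHCI 13 stood above the other 4 rHCI hearts. The log2 fold change was 0.66 ± 0.06 for PBS against Sham (SE; adjusted p = 8.55e-07, edgeR; means 256 ± 22.1 in PBS and 162 ± 6.36 CPM in Sham, SD, n = 5 each). Among rHCI hearts, rHCI 13 also had the highest sum of markers of mesothelium, the outer lining of the heart. It was 115 CPM beside 59.0 to 78.4 CPM. The same heart had the highest heart muscle marker sum of the rHCI hearts, 66463 CPM. It had their lowest endothelial and resting fibroblast sums, 833 and 2370 CPM. The part of these cell types in its Igfbp5 level was not tested. Igfbp3, the main carrier of IGFs in blood plasma, was more variable. Igfbp3 had 48.8, 84.9, 63.0, 55.5 and 41.6 CPM in the rHCI hearts, 59.6, 71.0, 70.5, 83.0 and 48.8 CPM in the PBS hearts and 32.3, 39.0, 44.1, 46.4 and 48.4 CPM in the sham hearts. PBS hearts all lay above sham hearts, but by a small gap, while rHCI 13 lay within the sham range. Igfbp3 lies at 7206086 to 7213923 on chromosome 11. Its log2 fold change was 0.66 ± 0.13 (SE; adjusted p = 0.000595, edgeR; means 66.6 ± 12.9 in PBS and 42.0 ± 6.49 CPM in Sham, SD, n = 5 each).

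Igfbp2, a carrier that is prominent in the embryo and low in the adult heart, changed the most in relative terms and had the lowest level. Igfbp2 had 0.470, 1.45, 1.17, 0.440 and 0.277 CPM in the rHCI hearts, 0.569, 1.15, 1.60, 1.59 and 0.383 CPM in the PBS hearts and 0.0271, 0, 0.0190, 0.0785 and 0.0565 CPM in the sham hearts. The sham libraries held 2, 0, 1, 4 and 5 counts, so these values rest on few reads, while PBS libraries held 21 to 136 counts and rHCI libraries 15 to 79. Every infarcted heart was above every sham heart. The log2 fold change for PBS against Sham was 4.77 ± 0.56 (SE; adjusted p = 5.20e-06, edgeR), at rank 95 from the highest among 16207 genes, and it lay between 4.53 and 5.09 over all alternative settings. By the same ranking Igf1 stood at 779, Igfbp7 at 1096, Igfbp4 at 1732 and Igf2r at 10265. Igfbp2 and Igfbp5 are neighbours on chromosome 1, with 5.46 kb between their facing ends on opposite strands (Igfbp2 at 72824503 to 72852474, Igfbp5 at 72857932 to 72874884, GRCm38), and differed in fold by 27.2 against 1.58. Igfbp1, the neighbour of Igfbp3 on chromosome 11, had a count in 1 library only (Sham 17, 0.0204 CPM) and was not tested.

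**Figure D2:**
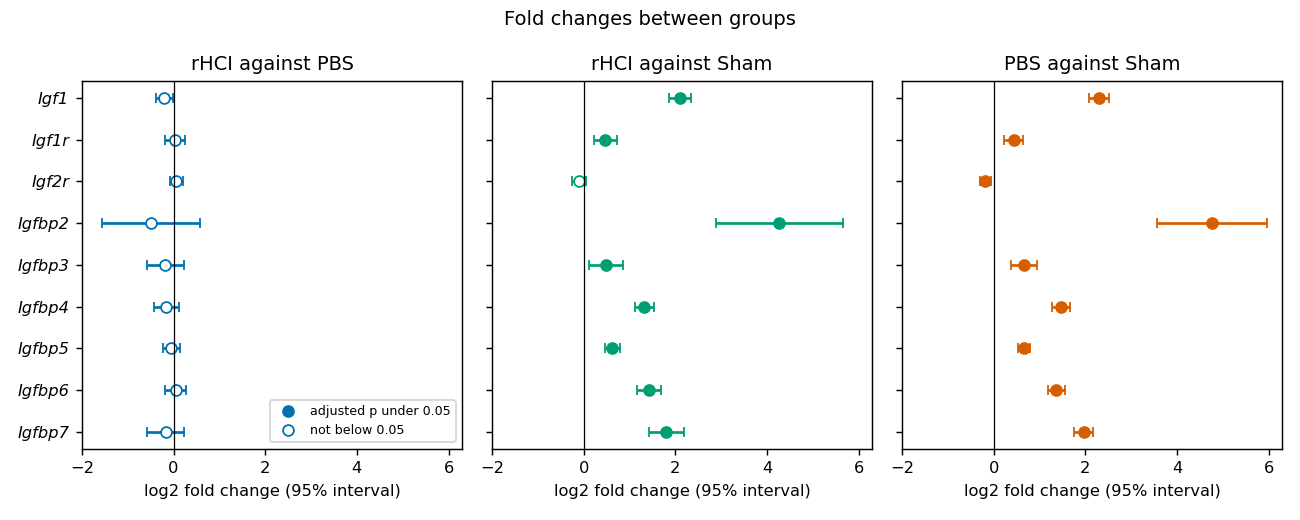
Fitted log2 fold change of each of the 9 genes with its 95% interval in 3 comparisons (5 hearts per group; edgeR), with the zero line meaning equal levels; filled points pass an adjusted p of 0.05. Against Sham, Igfbp2, Igf1 and Igfbp7 lie farthest right, whereas in rHCI against PBS no gene passed and the fold changes lie between −0.50 for Igfbp2 and 0.06 for Igf2r.

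rHCI and PBS hearts were compared to ask whether the hydrogel changed the axis in infarcted ventricles. No member passed the same test with adjustment over 16383 genes, against 0% of all genes, and no member had groups apart, against 0.531%. Adjusted p-values were 0.871 to 0.946. Igf1 averaged 64.3 ± 6.76 CPM in rHCI hearts and 74.0 ± 6.08 CPM in PBS hearts (SD, n = 5 each), a log2 fold change of −0.20 ± 0.08 with a 95% interval of −0.39 to −0.01. It was the 1 member of 9 with an unadjusted edgeR p under 0.05, 0.0367, against 3.53% of all genes, and the adjusted p was 0.871. PBS 14, at 63.4 CPM, lay below 3 of the 5 rHCI hearts. The intervals of the others were −0.19 to 0.25 for Igf1r, −0.09 to 0.21 for Igf2r, −0.42 to 0.11 for Igfbp4, −0.24 to 0.15 for Igfbp5 and −0.19 to 0.28 for Igfbp6, all on the log2 scale. Wider ones were found for Igfbp3, −0.59 to 0.23, for Igfbp7, −0.57 to 0.24, and for Igfbp2, −1.57 to 0.58. The Igf1 interval, which is not adjusted for the number of genes, leaves out 0, and the intervals of the other members include it. With 5 hearts per group, differences as large as the ends of these intervals are not excluded. No member passed without PBS 6 either. Beyond the 9 genes, DESeq2 called 3 genes higher and 3 lower in rHCI among all genes.

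The rHCI hearts compared with sham hearts, which use the same libraries again as the 2 comparisons above, gave 8 of 9 members higher, against 34.1% of all genes, and 0 lower, against 29.7%. In 6 members the groups did not overlap, against 27% of all genes. The log2 fold changes were 2.10 ± 0.11 for Igf1, 1.81 ± 0.18 for Igfbp7, 1.32 ± 0.09 for Igfbp4, 1.42 ± 0.12 for Igfbp6 and 0.62 ± 0.08 for Igfbp5 (SE, n = 5 each). Igfbp2 had 4.27 ± 0.63. Igf1r had 0.48 ± 0.12 (adjusted p = 0.00323, edgeR) and Igfbp3 0.50 ± 0.17 (adjusted p = 0.0229, edgeR), both with overlapping groups. Igfbp3 lost its call without Sham 16 (0.41, adjusted p = 0.0591, edgeR) or without Sham 17 (0.47, adjusted p = 0.0510). Its value was smallest without rHCI 3, at 0.32, and passed there (adjusted p = 0.0498, edgeR). Igf2r had −0.11 ± 0.07 and did not pass (adjusted p = 0.197, edgeR). With totals alone as the scale, the median of all genes moved to 0.22, called genes were 79.0% higher against 53.4% with TMM, and Igf2r stood at 0.12.

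Levels between genes were set side by side per kilobase of exon. Igfbp7 stood first in every group, at 412 CPM per kb in rHCI hearts, 464 in PBS hearts and 119 in sham hearts. In rHCI and PBS hearts the order after it was Igfbp4, Igfbp5, Igfbp6, Igf2r, Igfbp3, Igf1, Igf1r and Igfbp2. In PBS hearts Igfbp6 and Igf2r overlapped in their values, as did Igf2r and Igfbp3, and in rHCI hearts each neighbour from Igfbp4 to Igfbp3 overlapped the next. In sham hearts Igf2r came second at 31.3 CPM per kb, then Igfbp5 at 27.0, Igfbp4 at 22.7, Igfbp3 at 13.4 and Igfbp6 at 12.4, of which only the last pair overlapped. Igf1, at 6.49 CPM per kb in rHCI, 7.48 in PBS and 1.53 in sham hearts, was above Igf1r, at 1.36 in rHCI, 1.33 in PBS and 0.983 in sham hearts, in each of the 3 groups. In sham hearts this order depends on the exon lengths, since without them Igf1 averaged 15.1 CPM and Igf1r 16.5 CPM.

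The 6 binding protein levels summed to 562 ± 131 CPM per kb in rHCI hearts, 623 ± 75.3 in PBS hearts and 194 ± 10.8 in sham hearts (SD, n = 5 each). Igfbp7 made up 72.5 ± 5.42% of the sum in rHCI hearts, 74.4 ± 0.677% in PBS hearts and 61.0 ± 2.48% in sham hearts, with every infarcted heart above 63.4%, the highest sham value. Igfbp5 made up 7.75 ± 2.55% in rHCI, 6.88 ± 0.647% in PBS and 13.9 ± 0.985% in sham hearts. Igfbp3 made up 3.33 ± 0.386% in rHCI, 3.40 ± 0.384% in PBS and 6.96 ± 1.37% in sham hearts. The binding protein sum per unit of Igf1 was 86.8 ± 18.6 in rHCI hearts, 83.3 ± 5.92 in PBS hearts and 129 ± 13.8 in sham hearts. These ratios ranged from 62.2 to 108 in rHCI hearts, 78.1 to 93.5 in PBS hearts and 115 to 151 in sham hearts, so both infarcted groups lay below the sham range. They are sums of messenger levels of the chosen genes, are given without a test and say nothing of protein. Igfbp7, whose protein binds IGFs only weakly, made up most of the sum in every heart. The ratios also depend on the exon lengths used, 1.209 kb for Igfbp7 and 9.904 kb for Igf1.

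**Figure D3:**
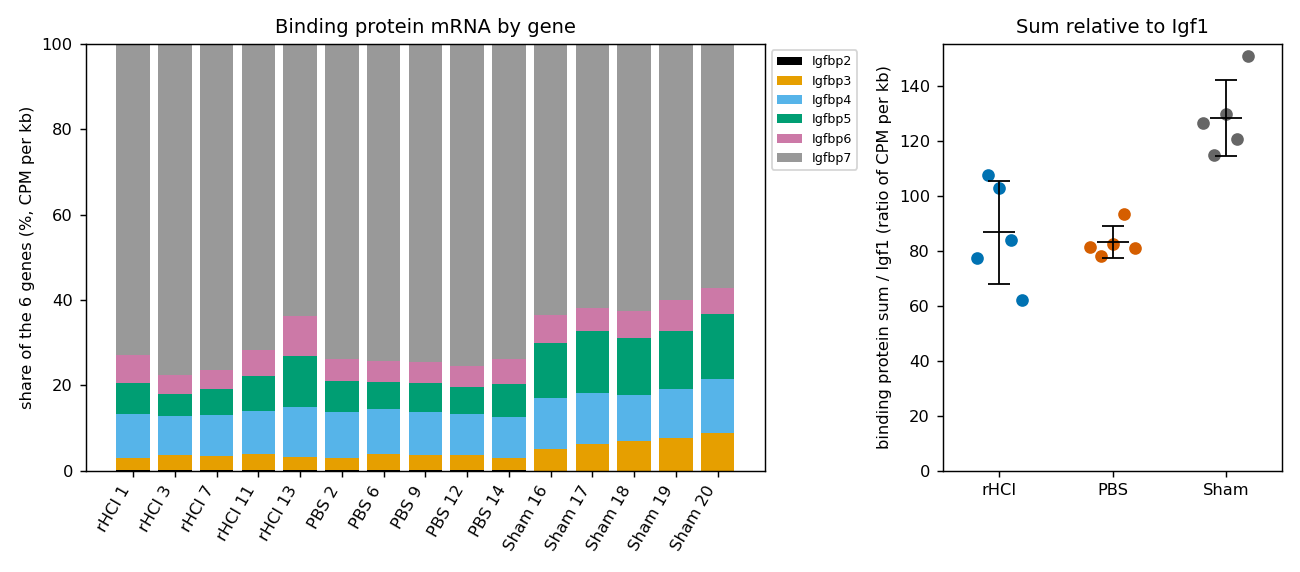
Share of each binding protein in the summed level of the 6 Igfbp genes, in percent of CPM per kb, for each of the 15 hearts, rHCI left, then PBS and Sham, and at the right the summed level over that of Igf1 per heart with mean and SD (n = 5). Igfbp7 fills most of each bar, 63.8% to 77.5% in rHCI hearts, 73.8% to 75.5% in PBS hearts and 57.2% to 63.4% in sham hearts, and Igfbp5 takes a wider band in Sham.

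The infarcted libraries differed in their balance of matrix and heart muscle genes, read as a scar score. The score is the mean log2 CPM of 6 matrix genes (Col1a1, Col1a2, Col3a1, Postn, Fn1 and Sparc) minus that of 6 heart muscle genes (Myh6, Tnnt2, Tnni3, Actc1, Ryr2 and Atp2a2), none of which is a member. The rHCI hearts had scores of −1.08, −0.291, −0.906, −1.57 and −1.74, and the PBS hearts −0.464, −0.707, −0.442, −0.271 and −1.39, while sham hearts had −6.31 to −5.77. The infarcted groups overlapped, and 3 rHCI hearts but 1 PBS heart lay below −1. With the score as a term, the uncalled difference of rHCI against PBS was −0.12 for Igf1, and it changed sign to 0.15 for Igfbp2, 0.082 for Igfbp3, 0.032 for Igfbp4 and 0.078 for Igfbp7. Across the 10 infarcted libraries, with the group held in the model, 5 of 9 members rose with the score, against 18.9% of all genes, and 0 fell, against 17.9%. Per log2 unit the slope was 1.63 ± 0.30 for Igfbp2, 0.62 ± 0.07 for Igfbp7, 0.60 ± 0.09 for Igfbp3, 0.41 ± 0.05 for Igfbp4 and 0.28 ± 0.07 for Igf1r (SE). By edgeR the adjusted p was 0.00158 for Igfbp2, 0.000120 for Igfbp7, 0.000534 for Igfbp3, 0.000178 for Igfbp4 and 0.00670 for Igf1r. Igf1r lost its call without rHCI 3 (0.22, adjusted p = 0.0982, edgeR) and without the 2 libraries farthest from the median score, rHCI 13 and rHCI 11 (0.21, adjusted p = 0.133). Igf1 had 0.17 ± 0.07 (adjusted p = 0.0938, edgeR) and passed without rHCI 13 (0.26, adjusted p = 0.0168) and with no group term (0.23, adjusted p = 0.0215), while without PBS 14 it was 0.0997 (adjusted p = 0.405). Igfbp5 had −0.04 ± 0.09, Igfbp6 0.04 ± 0.11 and Igf2r 0.01 ± 0.07, and none of them passed. The score is read from the same libraries as the genes, and the part of infarct size or of sampling in it was not tested.

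**Figure D4:**
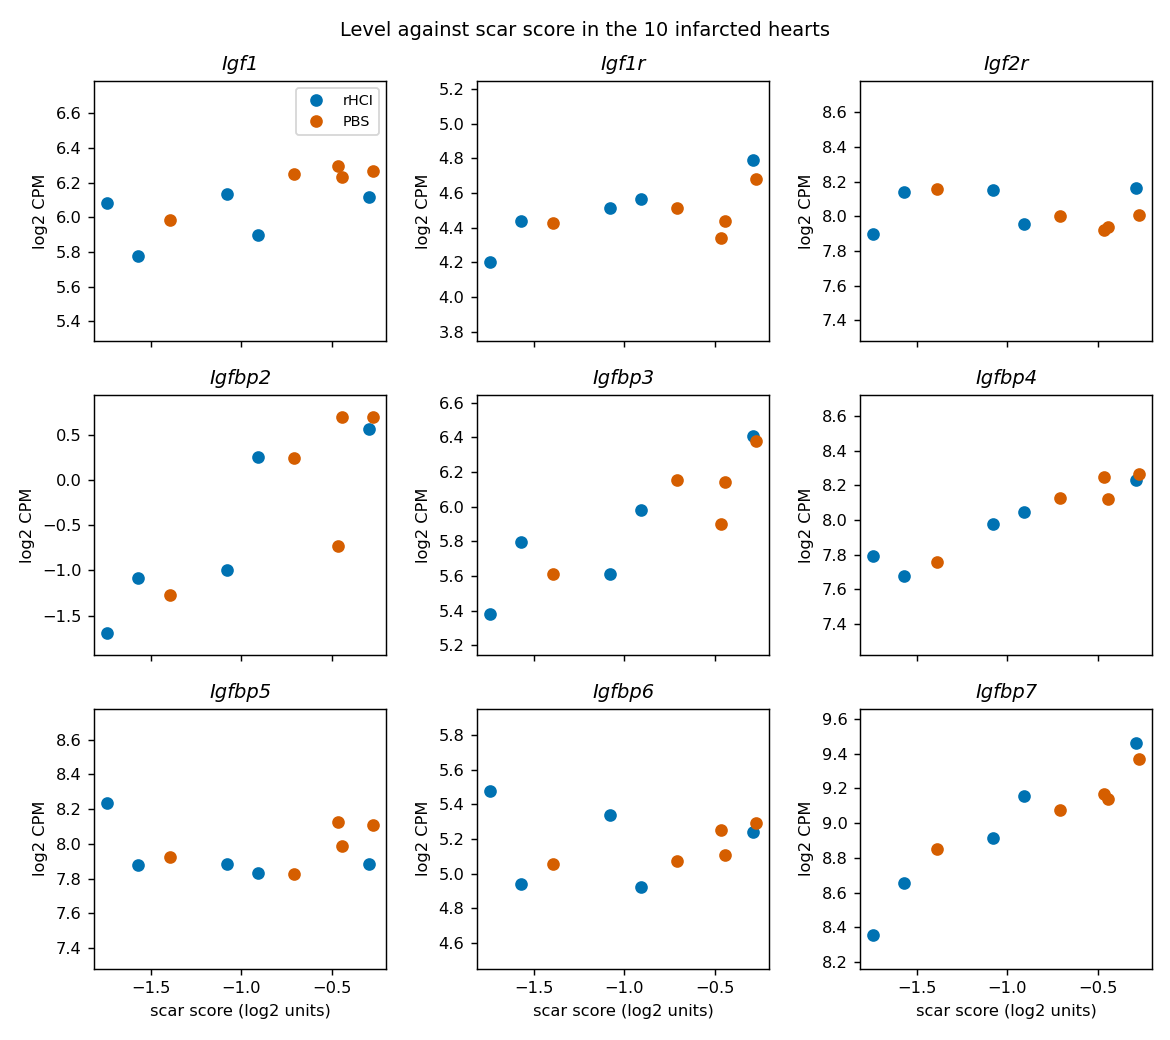
Log2 CPM of each of the 9 genes against the scar score of the same heart, for the 10 infarcted hearts, rHCI and PBS marked apart. Igfbp2, Igfbp3, Igfbp4 and Igfbp7 rise along the axis, whereas Igfbp5 and Igfbp6 show no slope that passed the test.

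Genes for release from the binding proteins, for its inhibition and for signalling were read from lists. Of 13 genes of binding protein proteases and their inhibitors, 11 rose in PBS hearts over sham hearts and 0 fell, beside 36.5% higher over all genes. Their median log2 fold change was 0.79, against −0.01 over all genes. The 11 include the inhibitor genes Timp1 and Stc2, so the count gives no direction of IGF release. Timp1, a metalloprotease inhibitor, averaged 41.8 ± 10.9 CPM in rHCI, 42.5 ± 7.24 CPM in PBS and 1.46 ± 0.331 CPM in sham hearts (SD, n = 5 each; log2 fold change 4.88 ± 0.16 for PBS against Sham). Adam12, which can cut IGFBP3 and IGFBP5, had 20.9 ± 4.74 CPM in rHCI, 27.4 ± 5.62 CPM in PBS and 1.03 ± 0.223 CPM in sham hearts (log2 fold change 4.75 ± 0.18). Mmp14, a membrane-bound metalloprotease, had a log2 fold change of 3.09 ± 0.13. Pappa, whose protease can cut IGFBP4, had 6.43 ± 1.005 CPM in rHCI, 8.50 ± 1.88 CPM in PBS and 1.36 ± 0.186 CPM in sham hearts. This was a log2 fold change of 2.63 ± 0.17 for PBS against Sham (adjusted p = 2.62e-08, edgeR). In rHCI against PBS, Pappa had −0.40 ± 0.17 and Stc2, a stanniocalcin that blocks PAPP-A, −0.21 ± 0.09, with an adjusted edgeR p of 0.871 each. In rHCI against Sham 9 of the 13 rose and 0 fell, beside 34.1% higher and 29.7% lower over all genes. With the scar score 9 rose and 0 fell, beside 18.9% rising and 17.9% falling over all genes.

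Of 14 other genes of the system, 11 were tested in PBS against Sham, 3 rose and 5 fell, with a median log2 fold change of −0.22, beside 36.5% higher, 34.9% lower and a median of −0.01 over all genes. These counts are near those shares. Irs2, a docking protein of the insulin and IGF-1 receptors, fell by 1.24 on the log2 scale (SE 0.30). Its sham hearts averaged 41.7 ± 22.2 CPM (SD, n = 5), so they were spread widely. The groups overlapped, with PBS 12 at 26.0 CPM above Sham 19 at 25.5 CPM and Sham 20 at 23.8 CPM. Insr, the insulin receptor gene, averaged 186 ± 17.9 CPM in rHCI, 166 ± 16.4 CPM in PBS and 258 ± 23.8 CPM in sham hearts (log2 fold change −0.64 ± 0.07 for PBS against Sham). Ghr, the growth hormone receptor gene, had −0.67 ± 0.05 and Socs3, a feedback inhibitor of cytokine receptors, 1.23 ± 0.14. Igf2, the other ligand, averaged 51.0 ± 5.65 CPM in rHCI, 50.7 ± 9.82 CPM in PBS and 44.7 ± 4.17 CPM in sham hearts, with a log2 fold change of 0.18 ± 0.12 that did not pass (adjusted p = 0.182, edgeR). Of 21 signalling genes 2 rose and 11 fell, with a median of −0.10, beside the same shares over all genes. Among them were Pik3r1, the PI3K regulatory subunit (−1.36 ± 0.12), Foxo3, a transcription factor held back by AKT (−0.60 ± 0.11), Tsc2, a brake on mTOR (−0.55 ± 0.05), and Shc1, an adaptor to the MAPK cascade (0.81 ± 0.07). In rHCI against Sham these lists had 3 higher and 5 lower of 11, and 2 higher and 9 lower of 21, beside 34.1% higher and 29.7% lower over all genes. With the scar score 3 rose and 1 fell of 12 system genes, and 1 rose and 8 fell of 21 signalling genes. Over all genes 18.9% rose and 17.9% fell with the score. Of 8 heart muscle markers 7 fell in PBS against Sham, and their part in the falls of listed genes was not tested. In rHCI against PBS none of the tested genes of these 3 lists passed (12, 13 and 21 genes). Within the system list Insr and Grb10 had the smallest unadjusted p, and within the signalling list Shc1 and Sos1, with log2 fold changes of 0.16 ± 0.08 for Insr, −0.14 ± 0.08 for Grb10, −0.16 ± 0.08 for Shc1 and 0.08 ± 0.04 for Sos1.

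**Figure D5:**
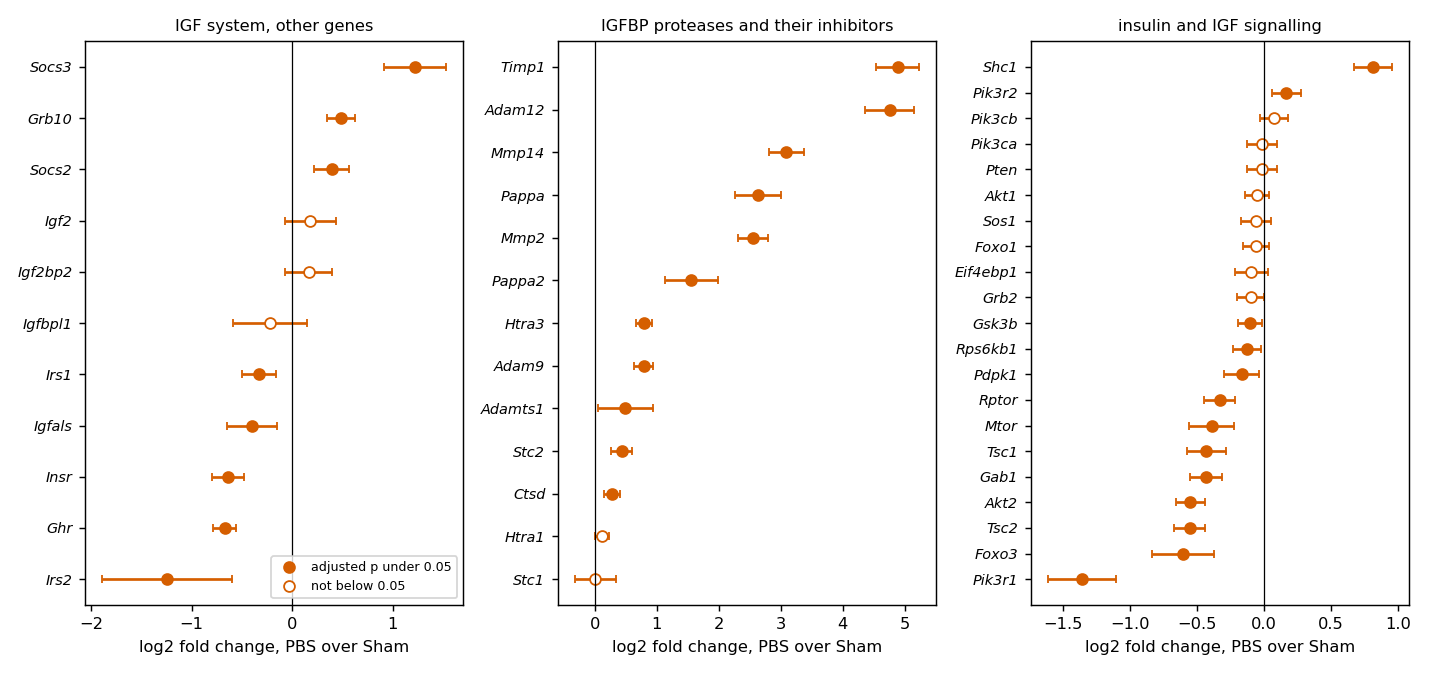
Fitted log2 fold change of the listed pathway genes for PBS against Sham with the 95% interval, in 3 panels by list (edgeR, 5 hearts per group); filled points pass an adjusted p of 0.05. Timp1, Adam12, Mmp14 and Pappa lie far to the right, whereas Pik3r1 and Irs2 lie to the left.

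As a description, the genes whose level followed each member most closely over the 15 libraries were ranked by the root mean square difference of centred log2 CPM among 10337 genes. For Igf1 they were Ly86 (0.107) and Fcrls (0.111), for Igfbp4 Rnf149 (0.0614) and Sh3bgrl3 (0.0664), for Igfbp7 Adamts10 (0.0738) and Sept5 (0.0766), and for Igfbp6 Ccl9 (0.113) and Gda (0.116). For Igfbp3 they were Fgfrl1 (0.152) and Spire1 (0.154), for Igfbp5 Dnase2a (0.0974) and Zfp90 (0.107), for Igf1r Ptpn12 (0.0848) and Phlpp2 (0.0902) and for Igf2r Ago2 (0.0465) and Gbf1 (0.0467). For Igfbp2 they were Gdf6 (0.516) and Loxl3 (0.539). The difference grows with a gene's own spread and with the noise of low counts, so its size cannot be compared between members. The likeness rests on the 3 group levels as well as on single hearts.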

How the data were processed

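Messenger RNA of the left ventricle was sequenced by a stranded protocol in 15 libraries, per the labels' protocols. The authors deposited raw read counts per gene, in whole numbers and without normalization. Trimmomatic, STAR, Cufflinks and edgeR and the builds GRCm38 and mm10 appear in the submitters' processing notes, with no role or version. Which counter, strand setting and annotation release were used is not given in the sources used here. Of 47069 identifiers, 46488 were in GENCODE M21, which gave positions and exon lengths. 80 symbols stood on more than 1 row, none of them a member, and 0 columns lacked a sample.

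Each comparison was fitted to its 10 libraries with edgeR 4.0.16 (R 4.3.3; TMM scaling, filterByExpr, quasi-likelihood test) over all genes that passed the filter, with Benjamini-Hochberg adjustment and a threshold of 0.05. CPM used TMM factors over all 15 libraries, and log2 CPM a prior count of 2. The slope on the scar score used the 10 infarcted libraries with group and score as terms. The procedure was also run on simulated counts in which few genes changed, equally many up and down. Far more genes differed in the comparisons with Sham, so that run does not test the scaling or the calls there. The members and gene lists were chosen with earlier results of these data known, so counts over them are descriptions. One gene of the signalling list is not reported here. From each pathway list the text names the genes with the largest changes among those that passed (at least 1 CPM), and in rHCI against PBS the genes with the smallest p. Run number in the labels, scaling, filter, DESeq2 1.42.0 and left-out libraries were tried as alternatives. Total counts of 32978702 to 103356830 limit the precision of Igfbp2, with at most 5 counts in a sham library, more than that of the others.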

Additional observations from a re-analysis of the deposited data

Results flagged for a closer look

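In 5 of 72 sets of values, each of 1 gene in the 5 libraries of 1 group, a single heart lay far from the other 4 by Dixon's criterion. Chance meets it in about 1 in 20 independent sets, but these sets share the same hearts and are not independent. Among the members, Igf1 in PBS 14 was at 63.4 CPM while the other PBS hearts were at 75.2 to 78.5 CPM, and Igfbp5 in rHCI 13 was at 301 CPM while the other rHCI hearts were at 228 to 236 CPM. PBS 14 was also low for Adam12, at 17.5 CPM beside 28.9 to 30.6 CPM, and for Mmp14, at 136 CPM beside 207 to 219 CPM, and had the lowest scar score of the PBS hearts, −1.39. In PBS 12, Irs2 was at 26.0 CPM beside 15.0 to 15.9 CPM.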

How the results depend on the processing

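No paired analysis was possible because the groups share no replicate numbers. Of the member values tried under other settings, 161 of 162 kept their direction and side of the threshold in PBS against Sham, 161 of 171 in rHCI against PBS and 159 of 162 in rHCI against Sham. With library totals as the scale, no member was lower in PBS hearts (0), all genes came to 8938 higher and 2610 lower in PBS against Sham and 2128 lower in rHCI against Sham, and Igf2r turned to 0.094 in PBS against Sham and 0.12 in rHCI against Sham. In rHCI against PBS that scale gave −0.0073 for Igf1r and −0.0028 for Igfbp6. DESeq2 called 3 genes higher and 3 lower in rHCI against PBS, and leaving out a library gave 0 to 3 lower, the 3 without rHCI 13. Uncalled rHCI against PBS values changed sign for Igfbp6 in the shared run (−0.016) and with run as a term (−0.017), and with the scar score as a term for Igfbp2 (0.15), Igfbp3 (0.082), Igfbp4 (0.032) and Igfbp7 (0.078). Leaving out single libraries gave −0.051 to 0.10 for Igf1r and −0.032 to 0.11 for Igfbp6. For the slope, leaving out the 2 farthest libraries gave 1573 rising and 1484 falling genes, and single libraries 1750 to 3200 rising and 1673 to 3016 falling, lowest without rHCI 3. The uncalled Igf2r slope was −0.0074 with Col1a1 minus Myh6, −0.00081 with RLE factors, −0.019 without group, −0.084 without the 2 farthest and −0.077 to 0.10 over single libraries. Igfbp5 gave 0.13 without the 2 farthest and −0.11 to 0.092 over single libraries, and Igfbp6 −0.038 to 0.19. The cause of these changes was not tested.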
